A study of Mus musculus with 27 samples.

Results

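The protein-folding and stress-chaperone genes of mouse liver are described here across 27 livers of mice on 4 diets. The set held 37 genes, listed by name: 26 of the endoplasmic reticulum (ER) and 11 of the cytosol and mitochondria. A gene was measured where a probe set of the array was annotated to it alone, and where several were, the one of highest mean was taken. Of the 37 genes, 32 were measured, 24 of the ER and 8 of the cytosol and mitochondria, and all 32 passed the minimum intensity of 20 on at least 5 arrays. On the whole array 18820 genes were measured and 13603 passed.

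The ER folds secreted and membrane proteins, and the liver makes most plasma proteins there. Its chaperone BiP, encoded by Hspa5, binds unfolded chains and also holds the stress sensors IRE1, PERK and ATF6 inactive. When unfolded protein builds up, IRE1 splices the mRNA of the transcription factor XBP1, PERK slows translation and raises ATF4, and ATF6 is cut to release a transcription factor. XBP1 and ATF6 act on genes of ER chaperones and of ER-associated degradation (ERAD), which sends misfolded proteins to the proteasome. In the cytosol, heat shock factor HSF1 acts in a similar way on the genes of HSP70, HSP90 and their co-chaperones.

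All 27 mice were male C57BL/6J, were 12 months old and had been on their diets from 9 weeks of age. CR-fed mice (n = 6) received a variant of the control diet enriched in vitamins and minerals, given once a day in the afternoon. Portions were set to hold 30% less energy than C-fed mice ate. The energy intake measured in the CR group was lower than this target. INT-fed mice (n = 7) alternated weekly between the medium-fat diet ad libitum and a 40% energy restriction, and were sacrificed in an ad libitum week. MF-fed mice (n = 7) had the medium-fat diet, with 25% of energy from fat, ad libitum, and C-fed mice (n = 7) had the control diet ad libitum. Before sacrifice every mouse was fasted for 4 h, was given 0.5% carboxymethyl cellulose by gavage as a mock treatment, and was fasted for another 6 h. The CR-fed mice thus differed from the others in energy intake, in the composition of their diet and in the timing of their meals. The values were log2 intensities of whole-liver RNA, in which fewer cells of a type and less RNA per cell cannot be told apart. Array medians ran from 5.21 to 5.27, and any 2 arrays correlated at 0.982 to 0.992 (Pearson's r).

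The best-known element of ER stress promoters is the ER stress response element (ERSE), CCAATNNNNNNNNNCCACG, bound by NF-Y, ATF6 and XBP1. It was searched on both strands of RefSeq promoter windows of 300 bases around the start of transcription (GRCm38.p6). The table held windows for 31 of the 37 genes. The ERSE was present in 8 of these 31 windows, and in 0.13% of 27025 windows, 1 per gene. The members were listed by name as folding and stress genes, and the ERSE is known from promoters of such genes. The comparison with all windows is therefore not an independent test of enrichment, here or for the elements below. The matches are shown because some of the 8 genes that share them were called between CR and other diets and others were not. Each is written 5′ to 3′ on the strand that reads CCAAT first, with the fixed letters of the element in capitals.
Hspa5, chr2:34772025-34772043, plus strand: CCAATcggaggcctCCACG
Creld2, chr15:88819520-88819538, minus strand: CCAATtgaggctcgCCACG
Syvn1, chr19:6046532-6046550, plus strand: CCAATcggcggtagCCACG
Dnajc3, chr14:118937827-118937845, plus strand: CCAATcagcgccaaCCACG
Hsp90b1, chr10:86705638-86705656, minus strand: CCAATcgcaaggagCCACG
Hsp90b1, chr10:86705533-86705551, plus strand: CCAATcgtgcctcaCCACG
Calr, chr8:84847075-84847093, plus strand: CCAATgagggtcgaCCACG
Canx, chr11:50325800-50325818, minus strand: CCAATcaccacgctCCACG
Pdia6, chr12:17266491-17266509, plus strand: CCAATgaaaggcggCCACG

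The shorter ERSE-II, which is ATTGG and CCACG with any base between them, was present in the windows of Dnajb11 and Herpud1 and in 0.037% of all windows. The heat shock element, searched as the units GAA, TTC and GAA or TTC, GAA and TTC with NN between units, which read as each other on the opposite strand, was present in the windows of Hsph1 and Hspe1 and in 0.529% of all windows. The ATF4 element TGATGNAA was present in those of Asns, Herpud1 and Trib3 and in 4.06% of all windows. A match is a match of letters in this window and says nothing of binding. Only exact matches in the first listed window of a gene were sought. A window without one does not show that the gene lacks the element or a variant of it. The 2 whole windows that follow are those of Hspa5 and of Creld2, the member whose level followed that of Hspa5 most closely from mouse to mouse. They are written in the direction of transcription, with the exact match to the ERSE in capitals. That of Creld2 lies on the other strand.
Hspa5, chr2:34771840-34772139, plus strand: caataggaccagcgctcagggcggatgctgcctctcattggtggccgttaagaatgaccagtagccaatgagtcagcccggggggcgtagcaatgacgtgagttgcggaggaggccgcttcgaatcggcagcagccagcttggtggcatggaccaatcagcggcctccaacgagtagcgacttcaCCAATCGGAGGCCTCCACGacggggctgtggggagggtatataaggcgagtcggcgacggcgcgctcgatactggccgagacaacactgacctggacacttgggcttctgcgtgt
Creld2, chr15:88819396-88819695, plus strand: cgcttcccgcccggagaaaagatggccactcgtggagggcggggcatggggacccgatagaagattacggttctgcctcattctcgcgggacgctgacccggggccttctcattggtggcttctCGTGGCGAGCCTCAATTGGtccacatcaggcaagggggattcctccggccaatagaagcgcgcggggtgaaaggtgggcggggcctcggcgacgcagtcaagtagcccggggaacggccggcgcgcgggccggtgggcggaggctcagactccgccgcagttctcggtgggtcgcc

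Differences between diets were tested with limma over all 13603 genes, and a gene was called where its Benjamini-Hochberg adjusted p was under 0.05. Between CR-fed and C-fed mice, 2 of the 32 members rose and 8 fell, against 8.46% of all genes that rose and 9.05% that fell. Between CR-fed and MF-fed mice, 1 member rose and 10 fell, against 8.57% and 11.2% of all genes. Between CR-fed and INT-fed mice, 1 member rose and 3 fell, against 6.62% and 8.37% of all genes. As shares of the members, the falls were 25.0%, 31.2% and 9.38%, and the rises were 6.25%, 3.12% and 3.12%. The falls thus stood above the share among all genes against C and MF and close to it against INT. The members were chosen with earlier results of these data known and varied together from mouse to mouse, and the excess was not tested. The median change of the members was -0.04, -0.10 and -0.06 on the log2 scale, and that of all genes was 0.004, -0.002 and 0.001. With each array centred on its median, 1475 of all genes were higher and 1222 lower between CR-fed and MF-fed mice, against 1166 and 1524 without it. The members then had 2 rises and 7 falls against MF.

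Among the 24 ER members, 2 rose and 6 fell against C, 1 rose and 7 fell against MF, and 1 rose and 2 fell against INT. Among the 8 cytosolic and mitochondrial members, 2, 3 and 1 fell in the same 3 comparisons and none rose. As shares, the falls were 25%, 29.2% and 8.33% of the ER members and 25%, 37.5% and 12.5% of the others. Of all genes, 9.05%, 11.2% and 8.37% fell. The rises were 8.33%, 4.17% and 4.17% of the ER members, against 8.46%, 8.57% and 6.62% of all genes. Whether the ER members differed from the others was not tested. The ER count of 8 against C was 3 without C replicate 7, 4 without C replicate 6 and 5 without each of CR replicates 1, 3, 5 and 6. The cytosolic count of 2 against C was 1 without each of C replicates 1 and 7 and CR replicates 5 and 6. Its count of 3 against MF was 1 without each of MF replicates 3 and 4 and CR replicates 5 and 6. Across the 4 diets together, limma's moderated F test called 5 of the 32 members, Creld2, Xbp1, Syvn1, Edem1 and Dnaja1, against 16.7% of all genes.

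**Figure D1:**
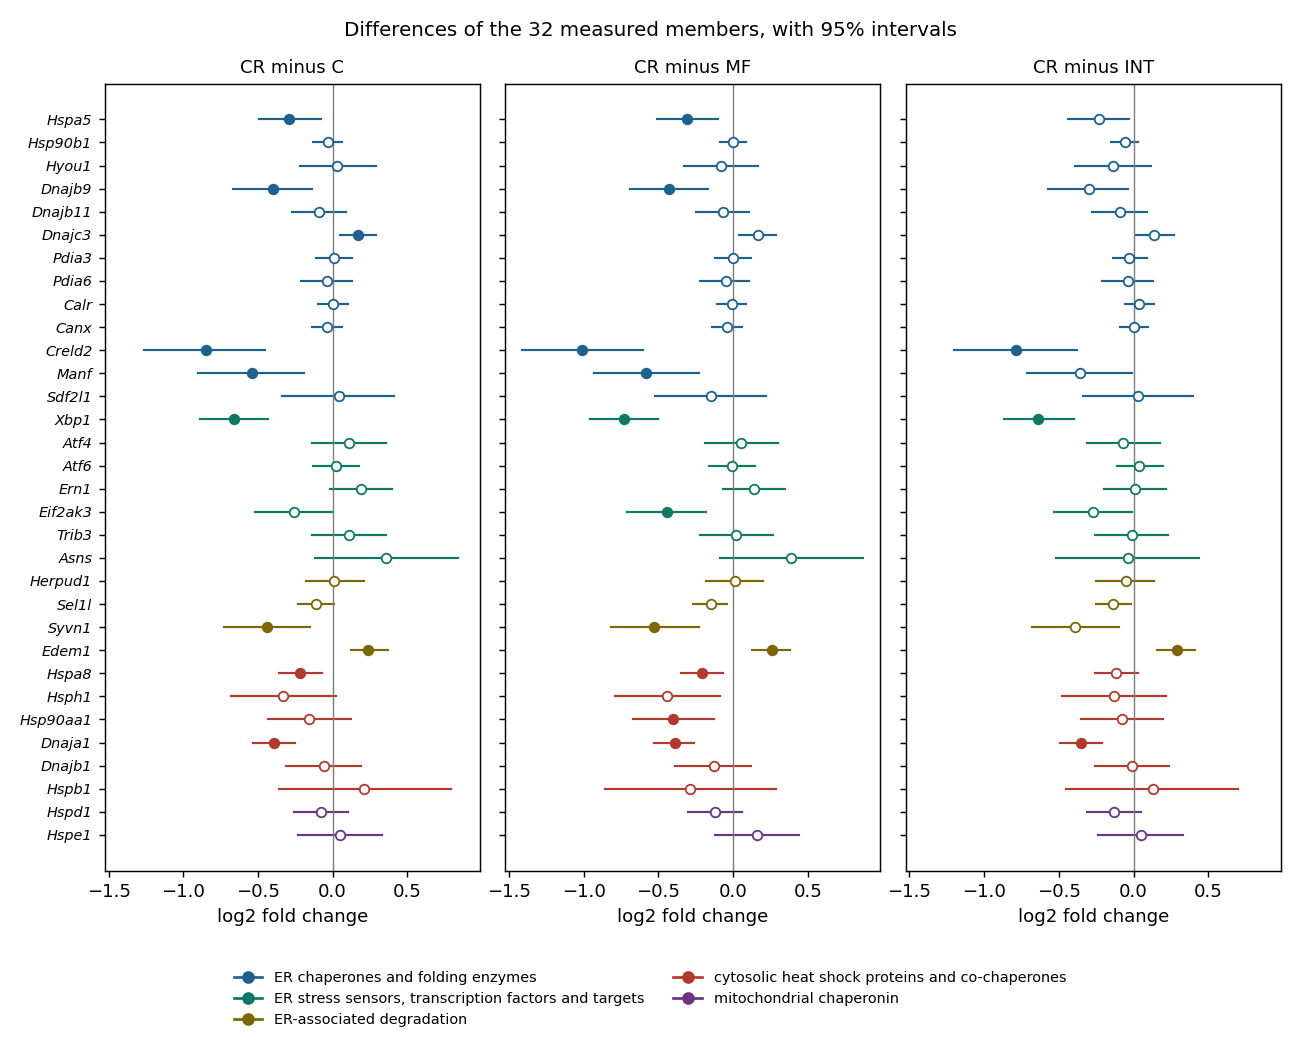
Log2 fold changes of the 32 measured members between CR-fed mice and C-, MF- or INT-fed mice, with 95% intervals and with colours by role; filled points are called. Creld2 and Xbp1 lie farthest to the left in all 3 panels, at -0.85 and -0.66 against C, and Hsp90b1, Pdia3, Pdia6, Calr and Canx lie within 0.06 of 0.

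Xbp1, the transcription factor spliced by IRE1, fell in CR-fed mice against every other diet. Its log2 intensity was 10.57, 10.86 and 10.96 (lowest, median and highest) in CR-fed mice, 11.26, 11.40 and 11.76 in INT-fed mice, 11.29, 11.49 and 11.88 in MF-fed mice, and 11.10, 11.40 and 11.95 in C-fed mice. All 6 CR-fed mice lay below all 21 others, while the other 3 diets overlapped. It fell by 36.7% against C (log2 -0.66, SE 0.11, adjusted p = 0.000137), with log2 changes of -0.73 against MF (adjusted p = 3.42e-05) and -0.64 against INT (adjusted p = 0.000236). All 3 calls held when any mouse was left out. The array summed its signal over the transcript, so spliced and unspliced Xbp1 mRNA were not separated.

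Of the 3 sensors, Eif2ak3 fell against MF and the other two were not called; their changes were not tested against that of Xbp1. Ern1, which encodes IRE1, averaged 8.94 ± 0.13 in CR-fed, 8.93 ± 0.20 in INT-fed, 8.80 ± 0.23 in MF-fed and 8.75 ± 0.17 in C-fed mice (SD). It was not called, with a 95% interval of -0.02 to 0.40 between CR and C. Atf6 averaged 9.68 ± 0.18 in CR-fed, 9.63 ± 0.14 in INT-fed, 9.68 ± 0.09 in MF-fed and 9.65 ± 0.11 in C-fed mice (SD), and its interval between CR and C was -0.13 to 0.18. Eif2ak3, which encodes PERK, was the only sensor called, and only against MF. It was 6.85, 7.09 and 7.38 (lowest, median, highest) in CR-fed, 7.00, 7.35 and 7.68 in INT-fed, 7.18, 7.53 and 7.86 in MF-fed, and 7.09, 7.29 and 7.93 in C-fed mice. The diets overlapped, and it fell by 26.5% against MF (log2 -0.44, SE 0.13, adjusted p = 0.0138), against -0.26 (adjusted p = 0.178) for CR minus C and -0.27 (adjusted p = 0.169) for CR minus INT.

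Of the genes downstream of PERK, Atf4, Trib3 and Asns were measured and not called. Atf4, a transcription factor, differed by 0.11 between CR and C, with an interval of -0.14 to 0.36. Trib3, a pseudokinase induced by ATF4 and CHOP, was near the intensity minimum, at means of 5.17 in CR-fed, 5.18 in INT-fed, 5.15 in MF-fed and 5.06 in C-fed mice. Asns, the asparagine synthetase of the amino acid response, ranged from 4.94 to 6.43 in CR-fed, 4.79 to 6.16 in INT-fed, 4.77 to 5.64 in MF-fed and 4.45 to 5.88 in C-fed mice. Its CR minus C difference of 0.36 had an interval of -0.12 to 0.84. Ddit3, which encodes CHOP, had only a probe set shared with Mars1, a methionyl-tRNA synthetase gene, and was not tested. That shared probe set averaged 6.25 in CR-fed, 6.20 in INT-fed, 6.21 in MF-fed and 6.19 in C-fed mice.

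**Figure D2:**
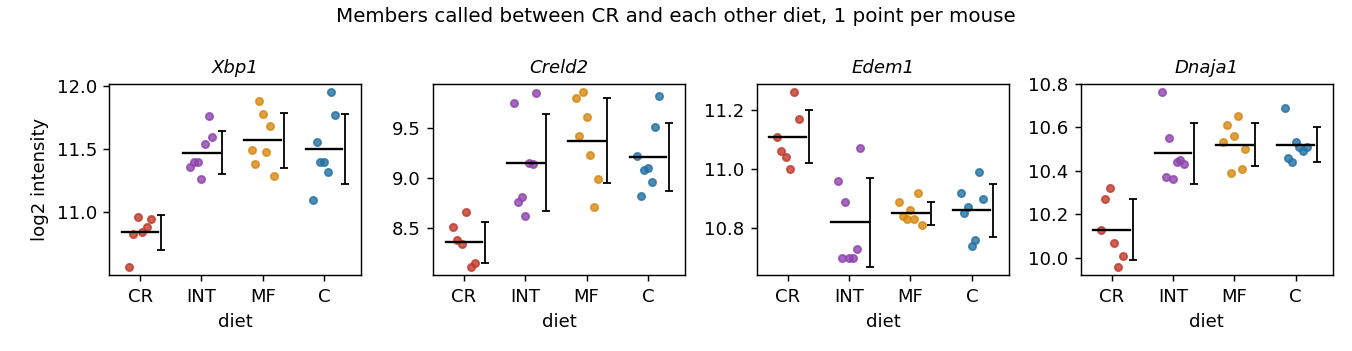
Log2 intensity of the 4 members called between CR and each other diet, with 1 point per mouse, a line at the mean of each diet and a bar of ± 1 SD. The 6 CR-fed mice lie below the other 21 for Xbp1 and Dnaja1, and average 11.11 against 10.82 to 10.86 for Edem1.

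Among the 13 measured ER chaperones and folding enzymes, 4 fell and 1 rose against C, 4 fell against MF and 1 fell against INT. The falls were 30.8%, 30.8% and 7.69% of the 13, beside 9.05%, 11.2% and 8.37% of all genes. The rise against C was 7.69% of them, beside 8.46% of all genes. Creld2, an ER-resident protein induced by ER stress, had the largest change of the 32 members in all 3 comparisons. Its log2 intensity was 8.12, 8.36 and 8.66 (lowest, median, highest) in CR-fed, 8.62, 9.14 and 9.84 in INT-fed, 8.71, 9.42 and 9.85 in MF-fed, and 8.82, 9.10 and 9.81 in C-fed mice. The CR-fed mice lay below all MF- and C-fed mice, and the highest of them overlapped the lowest INT-fed mouse. Creld2 fell by 44.6% against C (log2 -0.85, SE 0.20, adjusted p = 0.00296), with log2 changes of -1.01 against MF (adjusted p = 0.000526) and -0.79 against INT (adjusted p = 0.00636), and kept all 3 calls without any single mouse.

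Manf, which encodes a small ER protein that binds BiP and can be secreted under stress, fell against C and MF. It was 7.03, 7.23 and 7.42 in CR-fed, 6.91, 7.63 and 8.08 in INT-fed, 7.32, 7.75 and 8.18 in MF-fed, and 7.41, 7.67 and 8.22 in C-fed mice. The CR-fed mice formed a narrow group, none above 7.42, and the lowest INT-fed mouse, at 6.91, lay below all of them. The log2 change was -0.54 against C (SE 0.17, adjusted p = 0.0265), -0.58 against MF (adjusted p = 0.0166) and -0.36 against INT (adjusted p = 0.167). The call against C was lost without CR replicate 4, C replicate 6 or C replicate 7, with values from -0.60 to -0.47 over all mice left out and an adjusted p of at most 0.0648.

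Dnajb9, the ER co-chaperone ERdj4 that brings BiP to IRE1, also fell against C and MF. It was 9.88, 10.04 and 10.34 in CR-fed, 10.12, 10.36 and 10.72 in INT-fed, 10.21, 10.37 and 10.90 in MF-fed, and 10.19, 10.39 and 10.92 in C-fed mice. The diets overlapped at the top of the CR range. The log2 change was -0.40 against C (SE 0.13, adjusted p = 0.0284), -0.43 against MF (adjusted p = 0.0179) and -0.30 against INT (adjusted p = 0.116). The call against C was lost without CR replicates 1, 5 or 6 or C replicates 6 or 7, with values between -0.46 and -0.33 and an adjusted p of at most 0.0733.

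Hspa5 itself, BiP, had smaller fitted changes than Creld2, Manf and Dnajb9. It was 11.02, 11.12 and 11.38 in CR-fed, 11.10, 11.41 and 11.71 in INT-fed, 11.18, 11.43 and 11.67 in MF-fed, and 11.24, 11.33 and 11.78 in C-fed mice. Of the CR-fed mice, 5 lay at or below 11.16, and replicate 4, at 11.38, lay among the other diets. Hspa5 fell by 17.9% against C (log2 -0.29, SE 0.10, adjusted p = 0.0444) and had a log2 change of -0.31 against MF (adjusted p = 0.0276), against -0.23 (adjusted p = 0.113) for INT. The call against C was lost without any of C replicates 4, 6 and 7, CR replicates 1, 2, 3, 5 and 6, MF replicate 5 and INT replicate 6, at values between -0.33 and -0.23 and an adjusted p of at most 0.111. The call against MF was lost without CR replicates 1, 2 or 6 or MF replicates 1 or 3, at an adjusted p of at most 0.065. Both calls were lost with the arrays centred on their median.

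Dnajc3, an ER co-chaperone of BiP that also inhibits PERK, went the other way. It was 10.57, 10.75 and 10.85 in CR-fed, 10.48, 10.53 and 10.72 in INT-fed, 10.46, 10.58 and 10.70 in MF-fed, and 10.42, 10.55 and 10.72 in C-fed mice. The CR-fed mice sat at the upper end of the range shared by the others. The rise of 12.5% against C stood just inside the threshold (log2 0.17, SE 0.06, adjusted p = 0.0497), and the same 0.17 against MF just outside it (adjusted p = 0.052). The call against C was kept only without C replicate 1 or 6, CR replicate 1 or 5, MF replicate 2 or INT replicate 7. Without each of the other 21 mice it was lost, at values of 0.15 to 0.20 over all mice left out and an adjusted p of at most 0.126.

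Several core folding genes of the ER differed little between diets. Hsp90b1, which encodes the ER form of HSP90, averaged 11.47 ± 0.06 in CR-fed, 11.53 ± 0.07 in INT-fed, 11.47 ± 0.08 in MF-fed and 11.50 ± 0.04 in C-fed mice (SD), and its interval between CR and C was -0.13 to 0.06. The lectin chaperones Calr and Canx had intervals of -0.10 to 0.10 and -0.14 to 0.06 between CR and C. The protein disulfide isomerases Pdia3 and Pdia6 had intervals of -0.11 to 0.13 and -0.21 to 0.13. These intervals exclude for Hsp90b1, Calr, Canx, Pdia3 and Pdia6 a fall of the size fitted for Hspa5, -0.29. The interval of Hspa5 itself was -0.49 to -0.08, and the genes were not tested against each other. Hyou1, a large HSP70-like ER chaperone, and the co-chaperones Dnajb11 and Sdf2l1 were not called either, at 0.03, -0.09 and 0.04 between CR and C, but with the wider intervals of -0.22 to 0.29, -0.27 to 0.09 and -0.34 to 0.41. Pdia4 had only a probe set shared with Mir704 and was not tested; this averaged 11.06 in CR-fed, 11.18 in INT-fed, 11.21 in MF-fed and 11.14 in C-fed mice.

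Of the 8 genes with an ERSE, Hspa5, Creld2 and Syvn1 fell in CR-fed mice against C and MF, and Calr, Canx, Hsp90b1 and Pdia6 were not called. Dnajc3 rose against C. Of these calls, that of Dnajc3 was lost in 21 of the 27 fits that left out a mouse, that of Hspa5 against C in 10 and that of Syvn1 against C in 5, while those of Creld2 were lost in none.

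**Figure D3:**
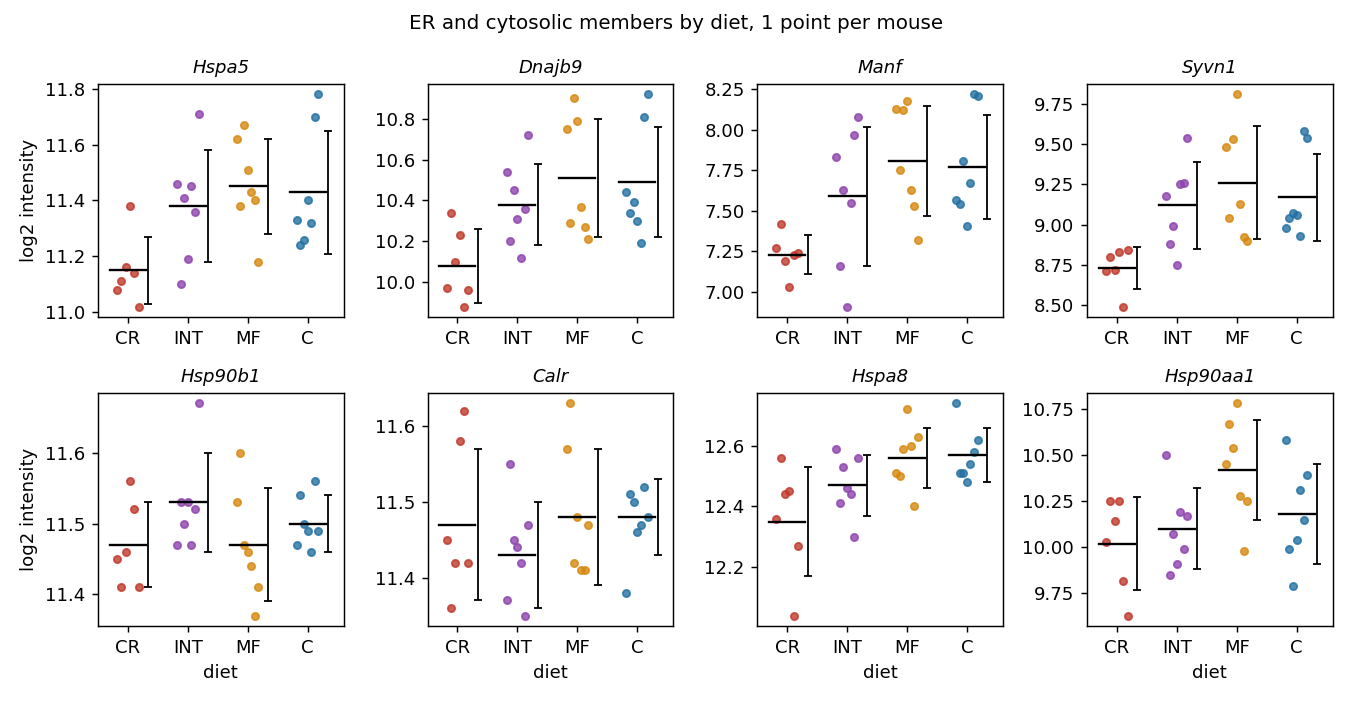
Log2 intensity of 8 members by diet, with 1 point per mouse, a line at the mean of each diet and a bar of ± 1 SD; the axes of the panels span different ranges. CR-fed mice lie low for Hspa5, Dnajb9, Manf and Syvn1, while the means of Hsp90b1 lie between 11.47 and 11.53 and those of Calr between 11.43 and 11.48.

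Of the 4 ERAD members, Syvn1 fell, Edem1 rose, and Sel1l and Herpud1 were not called. Syvn1 encodes HRD1, the ubiquitin ligase of the ERAD complex. It was 8.49, 8.76 and 8.84 in CR-fed, 8.75, 9.18 and 9.54 in INT-fed, 8.90, 9.13 and 9.81 in MF-fed, and 8.93, 9.06 and 9.58 in C-fed mice. All CR-fed mice lay below all MF- and C-fed mice, and they overlapped the INT-fed mice. It fell by 26.2% against C (log2 -0.44, SE 0.14, adjusted p = 0.0315) and had a log2 change of -0.53 against MF (adjusted p = 0.00914), against -0.39 (adjusted p = 0.0633) for INT. The call against C was lost without CR replicates 1, 3 or 5 or C replicates 6 or 7, at values between -0.48 and -0.37 and an adjusted p of at most 0.0752.

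Edem1, a lectin that draws misfolded glycoproteins out of the folding cycle, rose against all 3 diets. It was 11.00, 11.09 and 11.26 in CR-fed, 10.70, 10.73 and 11.07 in INT-fed, 10.81, 10.84 and 10.92 in MF-fed, and 10.74, 10.87 and 10.99 in C-fed mice. All CR-fed mice lay above all MF- and C-fed mice, and the highest INT-fed mouse lay within the CR range. Edem1 rose by 18.5% against C (log2 0.24, SE 0.06, adjusted p = 0.00543), by 19.4% against MF (0.26, adjusted p = 0.00336) and by 21.8% against INT (0.29, adjusted p = 0.00158), and no mouse left out removed a call. Sel1l, the partner of HRD1, differed by -0.11 against C (adjusted p = 0.195) and by -0.15 against MF (adjusted p = 0.0568). Herpud1, an ERAD scaffold, averaged 12.10 in CR-fed, 12.16 in INT-fed, 12.09 in MF-fed and 12.09 in C-fed mice.

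In the cytosol Dnaja1, a J-domain co-chaperone of HSC70, fell against every other diet. It was 9.96, 10.10 and 10.32 in CR-fed, 10.36, 10.44 and 10.76 in INT-fed, 10.39, 10.53 and 10.65 in MF-fed, and 10.44, 10.51 and 10.69 in C-fed mice. As for Xbp1, all 6 CR-fed mice lay below all 21 others. Dnaja1 fell by 23.7% against C (log2 -0.39, SE 0.07, adjusted p = 0.000145), with log2 changes of -0.39 against MF (adjusted p = 0.000116) and -0.35 against INT (adjusted p = 0.000495), and kept each call without any single mouse. Another probe set of Dnaja1 differed by -0.52 between CR and C, and a further one, shared with Mir207, by 0.03.

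Hspa8, the constitutive HSC70, was 12.04, 12.40 and 12.56 in CR-fed, 12.30, 12.46 and 12.59 in INT-fed, 12.40, 12.59 and 12.72 in MF-fed, and 12.48, 12.54 and 12.74 in C-fed mice. The CR range overlapped those of all other diets, and CR replicates 5 and 6 were its lowest mice. Hspa8 fell by 13.9% against C (log2 -0.22, SE 0.07, adjusted p = 0.0301) and by 13.5% against MF (-0.21, adjusted p = 0.0324). The call against C was lost without CR replicates 5 or 6 or C replicates 1 or 7 (values -0.26 to -0.15, adjusted p at most 0.0944). That against MF was lost without CR replicates 5 or 6 or MF replicates 3, 4, 5 or 7 (values -0.25 to -0.15, adjusted p at most 0.102). Other probe sets of Hspa8 alone differed by -0.21 and -0.23 between CR and C. Those shared with Snord14c and Snord14d differed by 0.06 each.

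Hsp90aa1, the inducible cytosolic HSP90, was 9.63, 10.08 and 10.25 in CR-fed, 9.85, 10.07 and 10.50 in INT-fed, 9.98, 10.45 and 10.78 in MF-fed, and 9.79, 10.15 and 10.58 in C-fed mice. All 4 diets overlapped, and the median was highest in MF-fed mice. It fell by 24.3% against MF (log2 -0.40, SE 0.13, adjusted p = 0.0335) and differed by -0.16 from C (adjusted p = 0.466). The call was lost without CR replicates 5 or 6 or MF replicates 2, 3 or 4 (values -0.47 to -0.32, adjusted p at most 0.101). It was also lost with the arrays centred on their median or normalized by cyclic loess, as the calls of Hspa8 were under median centring.

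Hsph1, an HSP110 exchange factor, had a larger fitted difference than Hspa8 but varied more between mice, at -0.33 against C (adjusted p = 0.204) and -0.44 against MF (adjusted p = 0.0713). Dnajb1, an HSP40 induced by heat, and the small heat shock protein Hspb1 were not called, and the interval of Hspb1 between CR and C, -0.36 to 0.79, was the widest of the set. Hspb1 lay between 7.86 and 9.92 in C-fed mice and between 8.21 and 10.56 in MF-fed mice. The mitochondrial chaperonin genes Hspd1 and Hspe1 were not called in any comparison, at -0.08 and 0.05 between CR and C. The stress-inducible HSP70 genes Hspa1a and Hspa1b shared 3 probe sets and were not tested. The one of highest mean averaged 8.09 ± 0.61 in CR-fed, 8.05 ± 0.41 in INT-fed, 8.24 ± 0.35 in MF-fed and 8.04 ± 0.37 in C-fed mice (SD). Hsp90ab1 was not analysed here.

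No member was called among the 3 diets that included ad libitum feeding. Between INT and C, INT and MF, and MF and C, limma called 0%, 0% and 0% of all 13603 genes, where 922, 1479 and 464 genes had a p under 0.05 before adjustment. Of the 32 members, 1 had such a p, Hsp90aa1 between INT and MF (log2 -0.32, unadjusted p = 0.0177, adjusted p = 0.389). Fitted differences of the members ran from -0.20 for Hsph1 to 0.40 for Asns between INT and C, from -0.42 for Hspb1 to 0.42 for Asns between INT and MF, and from -0.11 for Hspe1 to 0.50 for Hspb1 between MF and C. A missing call does not show that these diets were alike.

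How the members varied among themselves was examined within diets, with each diet's mean removed, over the 27 mice. Hspa5, a chaperone of the ER, and Hsph1, of the heat shock response, were each paired with the other 31 members, and permutation p-values (2-sided, 100000 resamples within diets) were adjusted over the 31 pairs. A pair passed where the adjusted p of Pearson's r was under 0.05. Genes outside the set were not paired, so the share of all genes that would pass is not known. The counts therefore do not show that a correlation was particular to these members. Hspa5 passed with 12 of 23 ER members, 11 of them positive, and with 0 of 6 cytosolic and 0 of 2 mitochondrial members, of which 3 cytosolic members had an unadjusted permutation p under 0.05. By rank, 2 of the 6 cytosolic members did pass with Hspa5, Hsp90aa1 (rho = 0.50, adjusted p = 0.0364 by permutation) and Hsph1 (rho = 0.47, adjusted p = 0.0464 by permutation). The median r was 0.45 over the ER members and 0.34 over the cytosolic members. Its highest correlations were with Creld2 (r = 0.82, rho = 0.77, adjusted p = 0.00031 and 0.00062 by permutation), Hyou1 (r = 0.79, rho = 0.72), Dnajb9 (r = 0.79, rho = 0.69), Syvn1 (r = 0.79, rho = 0.74) and Manf (r = 0.74, rho = 0.72), with adjusted permutation p of at most 0.000744 for r and 0.00198 for rho. For Creld2 the smallest p that these permutations can give, 1e-05, was reached for r. Without the 2 mice farthest from the Hspa5 median, the r of these pairs was 0.79, 0.77, 0.74, 0.80 and 0.72. Without the means of replicates 1 to 4 and 5 to 7 as well, it was 0.75, 0.65, 0.77, 0.65 and 0.56 over all 27 mice.

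Sel1l (r = 0.61), Xbp1 (0.60), Atf6 (0.59), Eif2ak3 (0.59), Dnajb11 (0.57) and Sdf2l1 (0.55) followed, with adjusted permutation p of at most 0.0182, and Trib3 ran against Hspa5 (r = -0.59, rho = -0.49, adjusted p = 0.0119 and 0.0474 by permutation). For Sdf2l1 the rank correlation did not pass (rho = 0.46, adjusted p = 0.0554 by permutation). Atf4 ran with Hspa5 and passed by rank only (r = 0.45, rho = 0.47, adjusted p = 0.0547 and 0.0464 by permutation). Trib3 was near the intensity minimum, at diet means from 5.06 to 5.18. Hyou1 was not called between any diets, and it followed Hspa5 as closely within diets as Dnajb9 did. Calr, Canx, Pdia3 and Pdia6, with r between -0.15 and 0.11, did not pass with Hspa5. Of these, Calr, Canx and Pdia6 hold the ERSE, as do Hsp90b1 (r = 0.41) and Dnajc3 (r = 0.23), which did not pass either. Of the partners that passed, Creld2 and Syvn1 hold it. The windows of Dnajb9, Sel1l, Xbp1, Eif2ak3, Dnajb11, Sdf2l1 and Trib3 held no exact match, and Hyou1, Manf and Atf6 had no window.

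Hsph1 passed with 4 of 5 cytosolic members, Hsp90aa1 (r = 0.79, rho = 0.78), Hspa8 (r = 0.77, rho = 0.74), Dnaja1 (r = 0.66, rho = 0.70) and Dnajb1 (r = 0.66, rho = 0.70), at adjusted permutation p of at most 0.0036 for r and 0.00124 for rho, and with 3 of 24 ER members, Creld2 (r = 0.63), Dnajb9 (0.55) and Atf6 (0.52). By rank, only Creld2 of these 3 passed. Hspb1 did not (r = 0.31, adjusted p = 0.336 by permutation). Without the 2 mice farthest from the Hsph1 median, the r of the 4 cytosolic pairs was 0.83, 0.84, 0.65 and 0.59. Hspa5 and Hsph1 themselves had r = 0.46, with an adjusted p of 0.0507 by permutation in the Hspa5 family and 0.0785 in the Hsph1 family. Their rho of 0.47 passed in the Hspa5 family (adjusted p = 0.0464 by permutation) and not in the Hsph1 family (adjusted p = 0.0747 by permutation). Whether the ER and cytosolic correlations with Hspa5 differed from each other was not tested. The genes of a pair were read from the same arrays.

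**Figure D4:**
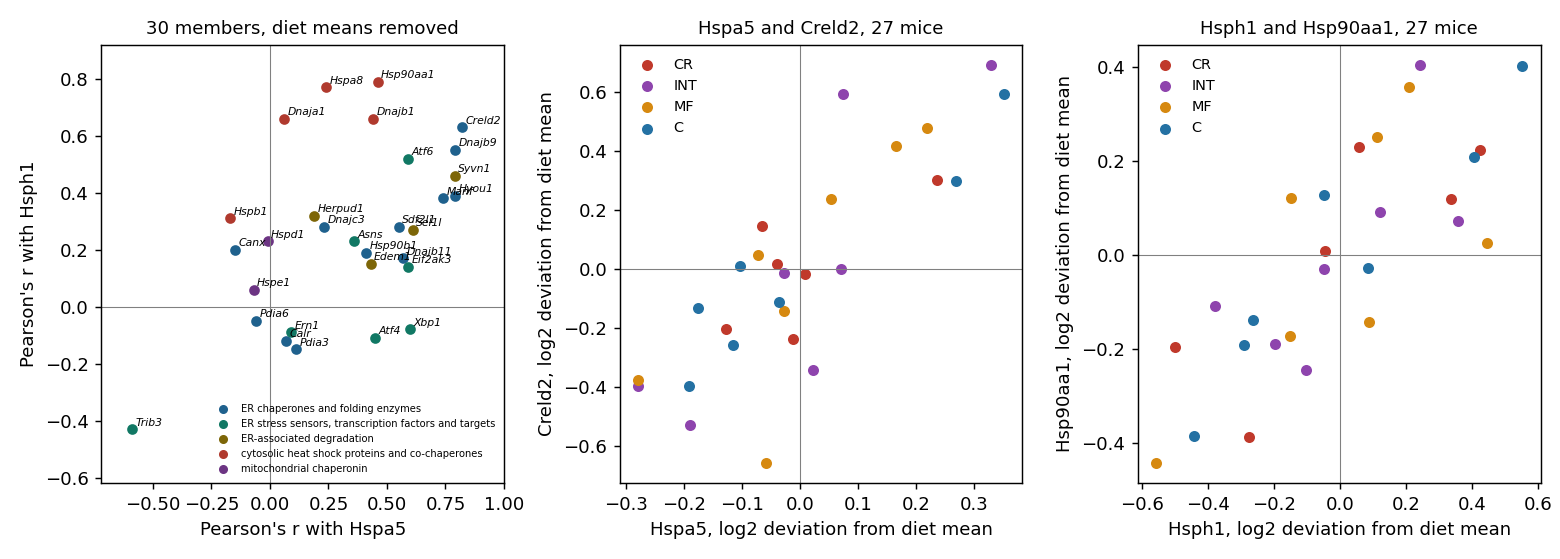
Left, Pearson's r of 30 members with Hspa5 (x axis) and with Hsph1 (y axis) over 27 mice after removal of diet means; middle and right, log2 deviations from the diet mean of Hspa5 and Creld2 (r = 0.82) and of Hsph1 and Hsp90aa1 (r = 0.79), with 1 point per mouse coloured by diet. Hspa8, Hsp90aa1, Dnaja1 and Dnajb1 lie at the top of the left panel, and Creld2, Dnajb9, Syvn1, Hyou1 and Manf at its right.

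The arrays of replicates 1 to 4 (16 mice) and replicates 5 to 7 (11 mice) differed slightly in spread, with mean interquartile ranges of 3.63 and 3.72, and the labels name no batch. Within replicates 1 to 4, Hspa5 had r = 0.70 with Creld2, 0.67 with Dnajb9, 0.54 with Syvn1, 0.51 with Hyou1 and 0.41 with Manf. Within replicates 5 to 7, the same r was 0.81, 0.86, 0.76, 0.81 and 0.78. Of the weaker partners, the same r in the 2 sets was 0.33 and 0.83 for Sel1l, 0.25 and 0.60 for Xbp1, 0.75 and 0.42 for Atf6, 0.41 and 0.57 for Eif2ak3, 0.20 and 0.80 for Dnajb11, and -0.50 and -0.81 for Trib3. For Sdf2l1 the sign turned, at -0.22 and 0.76. With the means of the sets removed as well, r with Hspa5 was 0.56 for Sel1l, 0.42 for Xbp1, 0.58 for Atf6, 0.46 for Eif2ak3, 0.44 for Dnajb11, 0.29 for Sdf2l1 and -0.66 for Trib3. Hsph1 had r = 0.73 and 0.67 with Hsp90aa1, 0.68 and 0.87 with Hspa8, 0.77 and 0.54 with Dnaja1, and 0.58 and 0.68 with Dnajb1 in the 2 sets.

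The differences between diets also varied between these sets. Xbp1 differed between CR and C by -0.56 in replicates 1 to 4 and by -0.76 in replicates 5 to 7, and Creld2 by -0.58 and -1.28. Against MF the order was reversed, at -0.83 and -0.57 for Xbp1 and -1.19 and -0.84 for Creld2. Hspa5 differed from C by -0.12 and -0.52, Dnajb9 by -0.21 and -0.72, Manf by -0.35 and -0.80, Syvn1 by -0.27 and -0.68, and Hspa8 by -0.11 and -0.43. Against MF, Manf differed by -0.82 and -0.26, Syvn1 by -0.70 and -0.32, Eif2ak3 by -0.64 and -0.10, Hspa5 by -0.36 and -0.25, and Dnajb9 by -0.52 and -0.36. Dnaja1 differed from C by -0.33 and -0.51, Edem1 by 0.21 and 0.33, and Dnajc3 by 0.21 and 0.10. All 25 called results kept their sign in both sets; with fewer mice, 13 lost their call in replicates 1 to 4 and 18 in replicates 5 to 7. Whether the sets differed from each other was not tested.

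Genes of the same pathways outside the 37 were called in both directions. Of all genes, 8.46% rose and 9.05% fell against C. Beside these, the shares that rose and fell against C were 7.41% and 3.70% of the other ER folding and oxidation genes, 8.82% and 14.7% of the translocation, glycosylation and export genes, and 4.35% and 13.0% of the other ERAD genes. They were 27.3% and 6.06% of the ATF4 and integrated stress response genes, and 20% and 16.7% of the other cytosolic chaperones. For the TRiC and prefoldin genes they were 7.69% and 7.69%, and for the other mitochondrial genes 10% and 0%. The ATF4 and integrated stress response genes had the highest share of rises among these 7 lists. This held also against MF and INT, at 18.2% in each, beside 8.57% and 6.62% of all genes. How far a list stood from all genes was not tested. Of 27 other ER folding and oxidation genes tested, 2 rose and 1 fell against C, namely the thioredoxin-domain gene Txndc11 (-0.41, adjusted p = 0.00129), the transmembrane disulfide isomerase Tmx3 (0.26, adjusted p = 0.00155) and the prolyl isomerase Fkbp14 (0.29, adjusted p = 0.0176). Against MF, 3 rose and 1 fell, and against INT, 2 rose and 2 fell. Their median change was 0.04, 0.03 and 0.04 in the 3 comparisons. Of 34 genes of ER translocation, glycosylation and export, 3 rose and 5 fell against C, 4 and 5 against MF, and 3 and 4 against INT. Creb3l3, an ER-anchored transcription factor of liver, averaged 9.42 in CR-fed, 9.86 in INT-fed, 9.87 in MF-fed and 9.87 in C-fed mice (CR minus C -0.45, adjusted p = 2.9e-05). The COPII coat genes Sec24d (-0.53, adjusted p = 3.06e-05) and Sec23b (-0.43, adjusted p = 0.00151), which serve export from the ER, also fell against C. In the same list Rpn1, a subunit of the oligosaccharyltransferase, rose by 0.33 against MF (adjusted p = 0.00101), and Sec61g, of the translocon, by 0.35 against INT (adjusted p = 0.00338).

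Of 23 other ERAD genes, 1 rose and 3 fell in each of the 3 comparisons. Derl2, a membrane component of the ERAD channel, rose by 0.34 against C, 0.38 against MF and 0.31 against INT (adjusted p = 0.00129, 0.000384 and 0.0034). Ubxn4, which recruits the p97 ATPase, fell by 0.34, 0.38 and 0.30, and Marchf6, an ER ubiquitin ligase, by 0.28, 0.27 and 0.32. Of 33 genes of ATF4 and the integrated stress response, not all of them targets, 9 rose and 2 fell against C. Against MF 6 rose and 4 fell, and against INT 6 rose and 2 fell. Cth, which makes cysteine from cystathionine, averaged 11.67 in CR-fed, 11.12 in INT-fed, 10.71 in MF-fed and 10.90 in C-fed mice (CR minus C 0.76, adjusted p = 9.56e-06). Shmt2, a mitochondrial serine enzyme of one-carbon metabolism, fell by 0.30 against C (adjusted p = 0.000489), and Eif2ak4, the amino acid sensor GCN2, rose by 0.28 (adjusted p = 0.00481).

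Of 30 other cytosolic chaperones, co-chaperones and heat shock factors, 6 rose and 5 fell against C, 2 and 6 against MF, and 3 and 2 against INT. Dnaja4, an HSP40 of the family of Dnaja1, went opposite to it, at 6.11 in CR-fed, 5.79 in INT-fed, 5.65 in MF-fed and 5.54 in C-fed mice (CR minus C 0.57, adjusted p = 0.000545). Hspb6, a small heat shock protein, fell by 0.36 against C, 0.54 against MF and 0.54 against INT (adjusted p = 0.0021, 2.37e-05 and 2.51e-05), and Hspa4, an HSP110 relative of Hsph1, by 0.24, 0.27 and 0.26. Hspa2, another HSP70, rose by 0.94 against INT (adjusted p = 0.000266). Of 13 TRiC and prefoldin genes, Pfdn2 fell by 0.27 against C (adjusted p = 0.0027) and Cct7 rose by 0.19 (adjusted p = 0.0343). Of 10 other mitochondrial chaperones and proteases, only Hspa9, the mitochondrial HSP70, was called, rising by 0.20, 0.19 and 0.16 against C, MF and INT.

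Other features of the CR-fed livers also differed from the other diets, and their part in the member changes was not tested. Beside the counts that follow, 8.46% of all genes rose and 9.05% fell against C. The shares were 8.57% and 11.2% against MF, and 6.62% and 8.37% against INT. Of 8 macrophage and Kupffer cell markers, 2 rose against C, 3 against MF and 5 against INT, with Clec4f at 0.48 against C (adjusted p = 0.000629), and their mean level ranged from 8.25 to 8.80 in CR-fed, 7.66 to 8.18 in INT-fed, 7.71 to 8.43 in MF-fed and 7.91 to 8.38 in C-fed mice. Of the 5 hepatocyte markers measured, 1 rose and 1 fell against each of C, MF and INT (against C, Cps1 by 0.27 and Cyp2e1 by -0.19), and the 5 together averaged between 13.31 and 13.35 in CR-fed, 13.19 and 13.33 in INT-fed, 13.14 and 13.35 in MF-fed, and 13.21 and 13.36 in C-fed mice. Of 6 exocrine pancreas markers with a value, Prss2, Ctrb1, Cel and Pdia2 did not pass the intensity minimum on any array, and 2 passed and were tested. Of 4 adipocyte markers with a value, Adipoq and Lep did not pass on any array, and 2 passed and were tested. None of the tested markers of these lists was called against C, MF or INT. Among 6 plasma and B cell markers, cells that also use XBP1, Sdc1 alone was called (0.47 against C, adjusted p = 0.000173), and hepatocytes express it too. Of the 6, 4 were lower in sign against C, at a median log2 change of -0.28, and 2 against MF, at a median of 0.15. The 6 together averaged 5.88 in CR-fed, 5.80 in INT-fed, 5.73 in MF-fed and 6.05 in C-fed mice. The cold-induced RNA-binding gene Rbm3 rose by 0.53 against C, 0.69 against MF and 0.49 against INT (adjusted p = 0.000662, 2.61e-05 and 0.00152). Of 6 glucocorticoid-responsive genes, 2 rose against C, 4 against MF and 2 against INT, with Sgk1 at 0.49, 0.43 and 0.48. Of 14 clock and temperature-responsive genes, 3 rose and 2 fell against C. The clock gene Cry1 rose by 0.78 against C (adjusted p = 0.0031) and Bhlhe41 fell by 0.95 (adjusted p = 0.00193).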

How the data were processed

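Liver RNA with an integrity number above 8.0 (100 ng per mouse) was labelled by the authors, and each of the 27 mice had 1 array. The authors normalized all arrays together with RMA, and the deposited values are log2 intensities per probe set, background-corrected and quantile-normalized. The deposited table lists 35556 probe sets as the maker defined them, not the Entrez-based sets that the methods describe. By the array's annotation 21218 named a single gene, 1881 several and 12457 none, and only the first were used. Symbols of 18790 of 18820 genes were updated through a GRCm38.p6 gene table. Groups came from the diet given in the labels.

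Diets were compared by limma (version 3.58.1, under R 4.3.3) in a fit of all 27 arrays and 13603 genes, without trended or robust variances, and p-values were adjusted after Benjamini and Hochberg (threshold 0.05). A minimum intensity of 20 (log2 4.32) on 5 arrays followed the methods, which name no test across genes. Correlations and figures were made in Python 3.11.15 (scipy 1.17.1, numpy 2.4.6, matplotlib 3.10.9, pandas 2.3.3). The limma step was tested on simulated data first. Alternatives were no minimum or one on all arrays, cyclic loess, centring on array medians, robust variances with a trend, only the 2 groups compared, the mean of a gene's probe sets, blocks by replicate or mouse number or by replicates 1 to 4 and 5 to 7, each of these sets alone, and leaving out each mouse. Arrays have no read depth, and the number of mice limits their precision. Members and lists were chosen with earlier results of these data known. All members were named; of each of the 21 other lists up to 3 called genes of smallest p per comparison were eligible. Other lists held markers of sinusoidal endothelium, stellate cells, cholangiocytes, T and NK cells, neutrophils and erythroid cells, and immediate early genes. Their calls against C were 1 of 6, 1 of 6, 2 of 4, 0 of 4, 0 of 2, 2 of 2 and 1 of 11. Motif matches and promoter windows came from RefSeq. No array was a copy of another, since the closest pair shared 138 values.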

Additional observations from a re-analysis of the deposited data

Results flagged for a closer look

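In 11 of 128 groups of mice (32 members in 4 diets), 1 mouse stood far from the rest of its diet by Dixon's test, which by chance alone marks about 1 group in 20. In CR-fed mice these were Hspa5 in replicate 4 (11.38, nearest 11.16), Xbp1 in replicate 1 (10.57, nearest 10.83), Syvn1 in replicate 5 (8.49, nearest 8.71) and Dnajb1 in replicate 5 (6.65, nearest 7.31). In INT-fed mice they were Hsp90b1 in replicate 7 (11.67, nearest 11.53), Dnajb1 in replicate 7 (7.58, nearest 7.31) and Hspb1 in replicate 2 (9.78, nearest 8.77). In MF-fed mice they were Dnajb1 in replicate 4 (7.05, nearest 7.35) and Hspb1 in replicate 4 (10.56, nearest 9.21). In C-fed mice they were Atf6 in replicate 7 (9.89, nearest 9.66) and Dnaja1 in replicate 1 (10.69, nearest 10.53). The highest Xbp1 value in CR-fed mice, 10.96, lay below the lowest of the other diets, 11.10, so its separation did not rest on the low mouse.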

How the results depend on the processing

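All 25 called results of single members kept their sign under all alternatives run. Under the 10 settings that kept all mice, 18 kept their call in every one, and 16 also kept it without each mouse in turn: those of Xbp1, Creld2, Dnaja1 and Edem1, and those of Dnajb9, Manf, Syvn1 and Eif2ak3 against MF. With diet means removed, 17 of 39 pairs of mice with the same replicate number correlated above 0.1 (r between -0.249 and 0.304). By mouse number, 11 of 39 pairs did. These were not compared with pairs of unlike number, so whether either number pairs the mice was not tested. With a replicate block, 6, 8 and 3 ER members and 2, 3 and 1 cytosolic and mitochondrial members were called against C, MF and INT, and the calls of Hspa5 against C and MF and of Syvn1 against C were lost. Leaving out 1 mouse gave 3 to 8 ER members against C, 7 to 9 against MF and 3 to 4 against INT, and 1 to 2, 1 to 4 and 1 to 1 cytosolic and mitochondrial members. Within replicates 1 to 4 the ER count was 1 against C, and within replicates 5 to 7 it was 3 against C, 0 against MF and 1 against INT. The cytosolic and mitochondrial count fell to 1 against C and to 1 against MF with arrays centred on their median, with only the 2 groups compared and with mouse number as a block. Within replicates 1 to 4 it was 1 against C, 1 against MF and 0 against INT, and within replicates 5 to 7 it was 1 against MF. These subsets hold fewer mice. The cause of the other changes was not tested. Dnajc3 against C lost its call in 5 of the 10 settings, Hspa5 against C in 6, Hsp90aa1 against MF in 4 and Hspa8 in 3 against C and 3 against MF. No other diet pair called a member under any setting.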
